A study of Mus musculus with 2 samples.

Results

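Haemoglobin-carrying endothelial cells of the mouse adrenal gland were taken as the cells in which transcripts of the adult globin genes and of endothelial genes were counted together. The members were chosen by their raw globin counts. A cell had to pass a filter (500 UMIs or more, 300 genes or more, mitochondrial share not over 15%), hold at least 3 UMIs summed over Hba-a1, Hba-a2, Hbb-bs and Hbb-bt, and hold at least 1 UMI summed over Pecam1, Cdh5 and Kdr. A UMI (unique molecular identifier) marks 1 captured RNA molecule. The rule found 343 cells among 9694 cells with endothelial UMIs and 9927 filtered cells in all. Because globin UMIs chose these cells, their globin levels are a description and carry no test.

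The cells were sorted as viable CD31+ CD45- cells from adrenal glands of female mice aged 12 weeks and profiled by 10x Genomics single-cell RNA sequencing. There was 1 library of wild-type (WT) mice and 1 library of mice labelled VEGF/LysM. The design text gives the question as the effect of VEGF-A from macrophages on endothelial diversity in the gland. LysM is a common name of Lyz2, a gene of macrophages and neutrophils. The allele behind the label VEGF/LysM and the number of mice in each library are not stated in the labels. With 1 library per group there was no replicate check, and every comparison between libraries compares 2 libraries, not the conditions. All intervals are 95% intervals that cover counting error only.

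Haemoglobin is a tetramer of alpha and beta globin chains, each holding haem. Red-cell precursors make it in bulk, and Alas2, their form of the first enzyme of haem synthesis, supplies the haem. Alpha globin has also been described in endothelial cells of small arteries, where it limits the spread of nitric oxide. The adrenal cortex is supplied mainly by fenestrated capillaries, whose pores are bridged by diaphragms made of Plvap, while continuous capillaries lack Plvap and take up lipid through Cd36, Gpihbp1 and Fabp4.

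The WT library held 6276 barcodes and 8606348 UMIs, and the VEGF/LysM library 3807 barcodes and 10323972 UMIs. The members had a median of 1470 UMIs in WT against 1196 in the other endothelial cells, and 2769 against 2345 in VEGF/LysM. Their median mitochondrial share was 2.86% against 1.67% in WT and 2.44% against 1.86% in VEGF/LysM. The libraries shared 10 cell barcodes, and none of these was a member in both. Doublets were not removed. Scrublet, left to set its own limit, marked 0 barcodes in WT and 3 in VEGF/LysM and so had not worked. High scores were held by 9.38% of WT members against 5.12% of other WT endothelial cells, and by 10.9% against 2.71% in VEGF/LysM. Leaving out the highest scores (315 WT and 116 VEGF/LysM barcodes) gave capillary-like shares of 63.4% and 60.7% of members and Alas2 log2 ratios of 4.34 and 4.87, beside the values below.

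Markers of other cell types were seen beside the endothelial ones. All 10 further endothelial markers, among them Flt1, Tie1, Cldn5 and Egfl7, were measured in both libraries, and none differed 2-fold between members and other endothelial cells. Over all measured genes 4.92% were higher and 6.05% lower in WT, and 3.01% and 5.48% in VEGF/LysM, so 0 of 10 lies near these shares. Clusters of other cell types held 2 WT and 4 VEGF/LysM members. Adrenocortical genes were higher in members, as given below. The median log2 ratio of the 10 endothelial markers was -0.09 in WT and -0.05 in VEGF/LysM. Of 8 mural genes, 2 were measured in each library, and 1 (Rgs5) was 2-fold higher in WT and 0 in VEGF/LysM. Lymphocyte markers were at or near 0, with 1 of 8 genes seen in WT members and 0 of 8 in VEGF/LysM members. Of 11 myeloid genes, 9 were seen in WT members, at a summed 210.5 CPM (UMIs scaled to a common total per group) against 307 CPM in the other cells, and 10 in VEGF/LysM members, at 354 against 380 CPM. Among them Ptprc was 2-fold higher and S100a9 lower in VEGF/LysM, and Fcer1g was lower in WT.

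In WT, 160 of 6001 endothelial cells were members (2.67%, 2.27 to 3.11). In VEGF/LysM, 183 of 3693 were (4.96%, 4.28 to 5.71). The VEGF/LysM library was deeper per cell, and thinning each cell to 1000 UMIs brought the shares to 1.84% (72 of 3911 cells) and 2.55% (86 of 3375 cells), with 2141 WT and 290 VEGF/LysM filtered cells too shallow to enter. The intervals after thinning overlapped (1.44 to 2.31 and 2.04 to 3.14).

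Most members held few globin UMIs. In WT the lowest member held 3, the median 7 and the highest 201. In VEGF/LysM the lowest held 3, the median 6 and the highest 1695. Globins made up a median of 0.502% of a WT member's UMIs and 0.255% of a VEGF/LysM member's, and at most 16.5% and 33.0%. The 10 cells with the most globin held 40.6% of the globin UMIs of WT members and 62.4% of those of VEGF/LysM members. More than 10% globin was seen in 3 WT and 2 VEGF/LysM members.

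**Figure D1:**
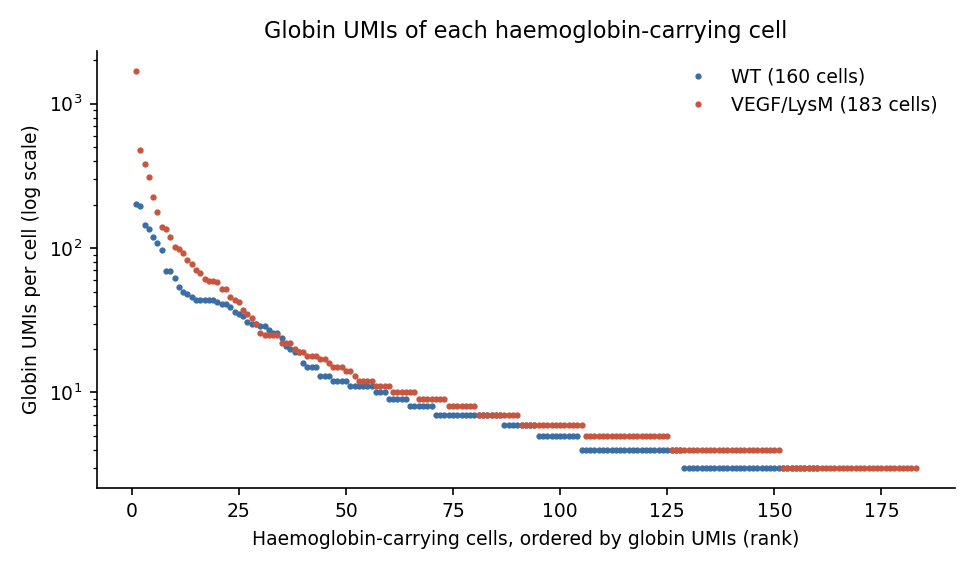
Globin UMIs (log scale) of each haemoglobin-carrying cell, ordered from high to low, for the 160 WT cells and the 183 VEGF/LysM cells, 1 point per cell. Most points lie under 10 UMIs, and a single VEGF/LysM cell stands above the rest at 1695.

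Alpha and beta chains were found together. Both were counted in 138 of 160 WT members and 163 of 183 VEGF/LysM members, beta alone in 17 of each, and alpha alone in 5 and 3. Hbb-bs, the more abundant adult beta gene, gave 1498 UMIs in WT members and 2914 in VEGF/LysM members, and was seen in 152 of 160 and 176 of 183 of them. Hbb-bt, its neighbour (chromosome 7, 103812524 to 103813996, minus strand, GRCm38/mm10, beside Hbb-bs at 103826534 to 103828096), gave 267 and 605. The alpha genes Hba-a1 (chromosome 11, 32283511 to 32284465, plus strand) and Hba-a2 (32296489 to 32297298, plus strand) gave 656 and 536 UMIs in WT and 1417 and 1100 in VEGF/LysM. Their annotated transcripts differ at 1 of 538 aligned bases, so the division of counts between these 2 genes is uncertain.

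The alpha share of globin UMIs had overlapping intervals at low and high levels. Alpha chains made up 38.4% of globin UMIs in WT cells with 3 to 9 (34.1 to 42.8) and 40.8% in those with 100 or more (37.6 to 44.1). In VEGF/LysM the same bands gave 37.8% (33.9 to 41.9) and 42.6% (41.0 to 44.2). Cells with 1 or 2 globin UMIs, which are not members, gave 38.9% in WT and 41.8% in VEGF/LysM. The embryonic genes Hba-x, Hbb-y and Hbb-bh1 had 0 UMIs in the members of both libraries.

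The members came mostly from the continuous-capillary-like cluster. Cells were clustered without the globins and the red-cell genes, and the cluster was named from the continuous capillary markers. It held 92 of 160 WT members (57.5%, 49.4 to 65.3) against 13.4% of the other WT endothelial cells. It held 101 of 183 VEGF/LysM members (55.2%, 47.7 to 62.5) against 21.8% of the others. The Plvap-high clusters held most of the endothelial cells in each library. They gave 26.9% of WT members against 74.3% of the others, and 24.6% against 62.9% in VEGF/LysM. Arterial-like cells gave 2 WT members (1.25% against 5.975% of the others) and 8 VEGF/LysM members (4.37% against 8.58%).

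Read the other way, 92 of 874 capillary-like cells in WT (10.5%, 8.57 to 12.8) and 101 of 866 in VEGF/LysM (11.7%, 9.60 to 14.0) were members. Among Plvap-high cells it was 43 of 4383 (0.981%, 0.711 to 1.32) and 45 of 2252 (2.00%, 1.46 to 2.66). Capillary-like cells were the shallower class, with a median of 920 UMIs against 1232 in WT and 1737.5 against 2526.5 in VEGF/LysM. At a fixed 1000 UMIs per cell the shares were 10.5% (39 of 370) and 7.57% (58 of 766) in capillary-like cells, and 0.789% and 0.740% in Plvap-high cells. The gap between the vessel classes thus stood in both libraries at equal depth, while the order of the libraries within capillary-like cells turned, with overlapping intervals.

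Cells in clusters of other cell types were set beside the vessel classes. Only those with at least 1 UMI summed over Pecam1, Cdh5 and Kdr entered, and whether such cells lack globin of their own was not tested. These clusters, with medians of 3380 UMIs in WT and 7154 in VEGF/LysM, held members at 3.08% (2 of 65 cells) and 5.97% (4 of 67). At 1000 UMIs per cell the shares were 0 of 52, with an upper bound of 6.85%, and 1 of 47 (2.13%, up to 11.3). At least 1 globin UMI was seen, at that depth, in 23.2% of WT and 20.9% of VEGF/LysM capillary-like cells, against 213 of 3041 and 146 of 2161 Plvap-high cells, and against 11.5% (4.35 to 23.4) and 4.26% (0.520 to 14.5) of the cells in clusters of other types. The shares of Plvap-high and arterial-like cells lay within the intervals of these other cell types, as did that of WT capillary-like cells. The VEGF/LysM capillary-like share lay above that interval. At 3 UMIs or more the capillary-like share after thinning lay above the interval of the other cell types in WT (7.60 to 14.1), while in VEGF/LysM (5.80 to 9.68) the intervals overlapped. With few cells and no known level without globin, these clusters do not set a background.

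A small unnamed cluster was also over-represented. It held 20 WT members (12.5% against 2.94% of other endothelial cells) and 23 VEGF/LysM members (12.6% against 1.74%). In this cluster 64.5% of cells had high doublet scores, its median depth was 3105 UMIs, and its leading genes were the neutrophil genes S100a9 and S100a8 with capillary genes such as Fmo2 and Cxcl12 behind them. S100a8 and S100a9 both had 0 UMIs in WT members. The cluster was given no cell type.

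**Figure D2:**
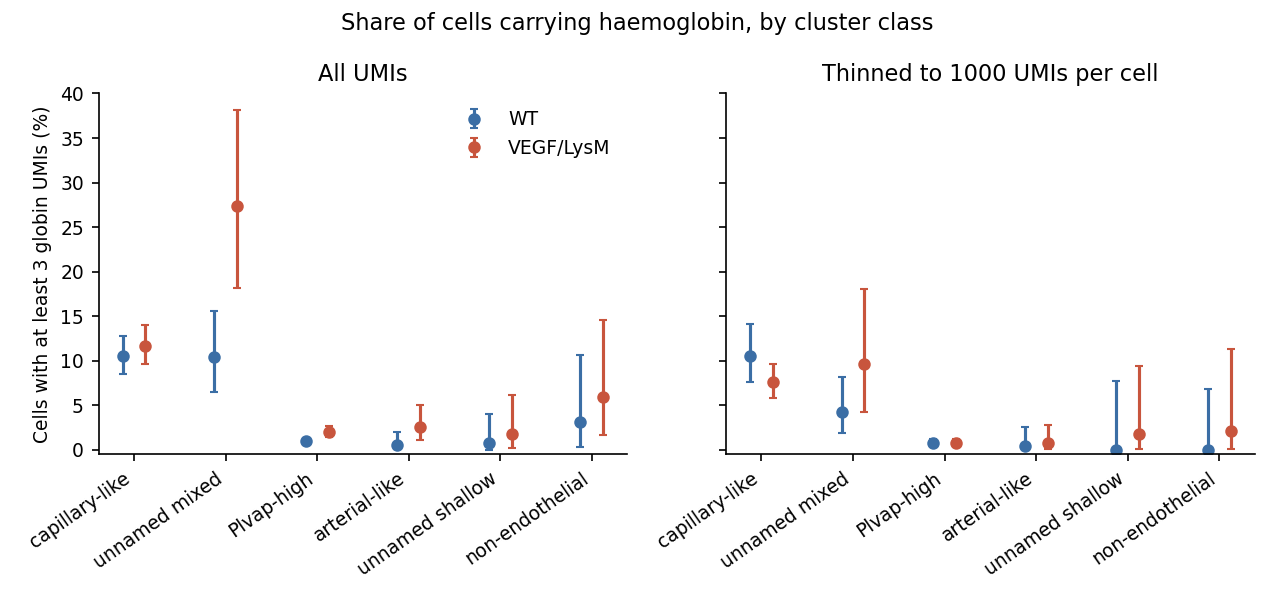
Percent of cells with at least 3 globin UMIs in each cluster class, with exact binomial 95% intervals, for WT and VEGF/LysM, from all UMIs (left) and from cells thinned to 1000 UMIs (right). Capillary-like cells stand at 10.5% and 11.7% on the left, and Plvap-high cells at 0.981% and 2.00%.

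The share of capillary-like cells was higher where cells held more globin, up to 99 UMIs. In WT it was 12.7% of cells with 0 globin UMIs, 20.3% with 1 or 2, 55.4% with 3 to 9, 56.7% with 10 to 29 and 73.9% with 30 to 99 (17 of 23 cells). In VEGF/LysM it was 20.2%, 31.4%, 46.2%, 64.9% and 84.2% (16 of 19 cells). Among cells with 100 or more it was 2 of 6 in WT and 7 of 10 in VEGF/LysM. At the limit of the rule, 56.2% of the 32 WT cells with exactly 3 globin UMIs and 33.8% of the 74 with exactly 2 were capillary-like. In VEGF/LysM it was 37.5% of 32 and 43.1% of 102. The VEGF/LysM cell with 1695 globin UMIs lay in a Plvap-high cluster.

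The markers followed. Levels are pooled CPM over all UMIs other than the 4 globins, and the ratio sets members over other endothelial cells of the same library. Of 10 continuous capillary genes, 7 were at least 2-fold higher in the members of each library, Cd36, Car4, Rbp7, Cxcl12, Fabp4, Timp4 and Aqp7. Across all measured genes, 4.92% in WT and 3.01% in VEGF/LysM were at least 2-fold higher. The median log2 ratio of the list was 1.80 in WT and 1.64 in VEGF/LysM, beside -0.01 and -0.03 over all measured genes. Cd36, a fatty acid transporter, stood at 4964 against 1157 CPM in WT (log2 2.10, 2.02 to 2.18) and at 5686 against 1800 CPM in VEGF/LysM (1.66, 1.61 to 1.71). Car4, a carbonic anhydrase on the capillary surface, stood at 327 against 73.8 CPM and at 380 against 105 CPM. Cd36 was counted in 75.6% of WT members against 22.4% of the others, and at 1000 UMIs per cell in 72.9% against 18.3%.

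Fenestrated capillary genes were lower. In WT 7 of 9 were at least 2-fold lower, and in VEGF/LysM 6 of 9, where 6.05% and 5.48% of all measured genes were. Plvap, the diaphragm protein, stood at 538 against 993 CPM in WT (log2 -0.89, -1.12 to -0.66) and at 501 against 998 CPM in VEGF/LysM (log2 interval -1.16 to -0.84). Esm1, a marker of VEGF-responsive endothelium, stood at 317 against 827 CPM and at 453 against 930 CPM. Igfbp5, which binds insulin-like growth factors and is not in this list, stood at 955 against 2660 CPM and at 902 against 2131 CPM.

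By the rule for named genes, 90 genes were eligible on the higher side and 43 on the lower. The 12 higher in both libraries by the most were Fmo2, Slco2b1, Cxcl9, Scd1, Car4, Cdh13, Timp4, Meox2, Lnx1, Lpl, Gpr160 and Cxcl12. Lpl, the lipase that frees fatty acids at the capillary wall, stood at 499 against 111 CPM in WT and at 476 against 142 CPM in VEGF/LysM. Meox2, a transcription factor of capillary endothelium, stood at 178 against 40.0 CPM and at 217 against 63.0 CPM. Cxcl12, the chemokine that binds Cxcr4, stood at 576 against 140.3 CPM and at 596 against 181 CPM. The 12 lower by the most were Sema3d, Pcdh9, Exoc3l4, Ctnna3, Hapln1, Mir99ahg, Ppfia2, Bmp2, Inpp4b, Trerf1, Igfbp5 and Dram1. Pcdh9, a protocadherin, stood at 58.3 against 236 CPM in WT and at 36.8 against 103 CPM in VEGF/LysM. Bmp2, a ligand of the bone morphogenetic protein family, stood at 42.1 against 105 CPM and at 21.4 against 52.6 CPM.

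Over all genes, 443 of 8999 were at least 2-fold higher in WT members and 544 lower. In VEGF/LysM 324 of 10751 were higher and 589 lower. Counting error alone can carry a gene past the 2-fold limit, so these counts include genes that may not differ. With the counting interval also beyond equal levels, 319 higher (3.54%) and 289 lower (3.21%) were left in WT, and 284 higher (2.64%) and 356 lower (3.31%) in VEGF/LysM. These intervals are per gene and are not adjusted for the number of genes. Both libraries together called 161 genes higher and 118 lower, of which 143 and 88 had both intervals beyond equal levels. The 161 are 36.3% of the genes higher in WT and 49.7% of those higher in VEGF/LysM.

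Within the capillary-like cluster few genes were 2-fold higher in members, and fewer genes were measured. The 92 WT members were set against 782 other capillary-like cells, and the 101 VEGF/LysM members against 765. Here 33 of 4178 measured genes (0.79%) were at least 2-fold higher in WT members and 26 of 6376 (0.408%) in VEGF/LysM members. The lower side held 161 genes (3.85%) in WT and 176 (2.76%) in VEGF/LysM, of which 54 (1.29%) and 94 (1.47%) had an interval beyond equal levels, as did 29 (0.694%) of the higher genes in WT and 26 in VEGF/LysM. With the other cells reweighted to the members' cluster mix, 2.8% of genes were higher and 3.89% lower in WT, and 1.55% and 3.28% in VEGF/LysM. No continuous capillary gene differed 2-fold, and the list's median log2 ratio was -0.01 in WT and 0.18 in VEGF/LysM. Cd36 stood at 8211 against 8067 CPM in WT and at 9582 against 9266 CPM in VEGF/LysM. The 12 genes named as higher lay between -0.42 (Gpr160) and 0.41 (Meox2) on the log2 scale in WT and between 0.07 (Cxcl9) and 0.56 (Scd1) in VEGF/LysM.

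**Figure D3:**
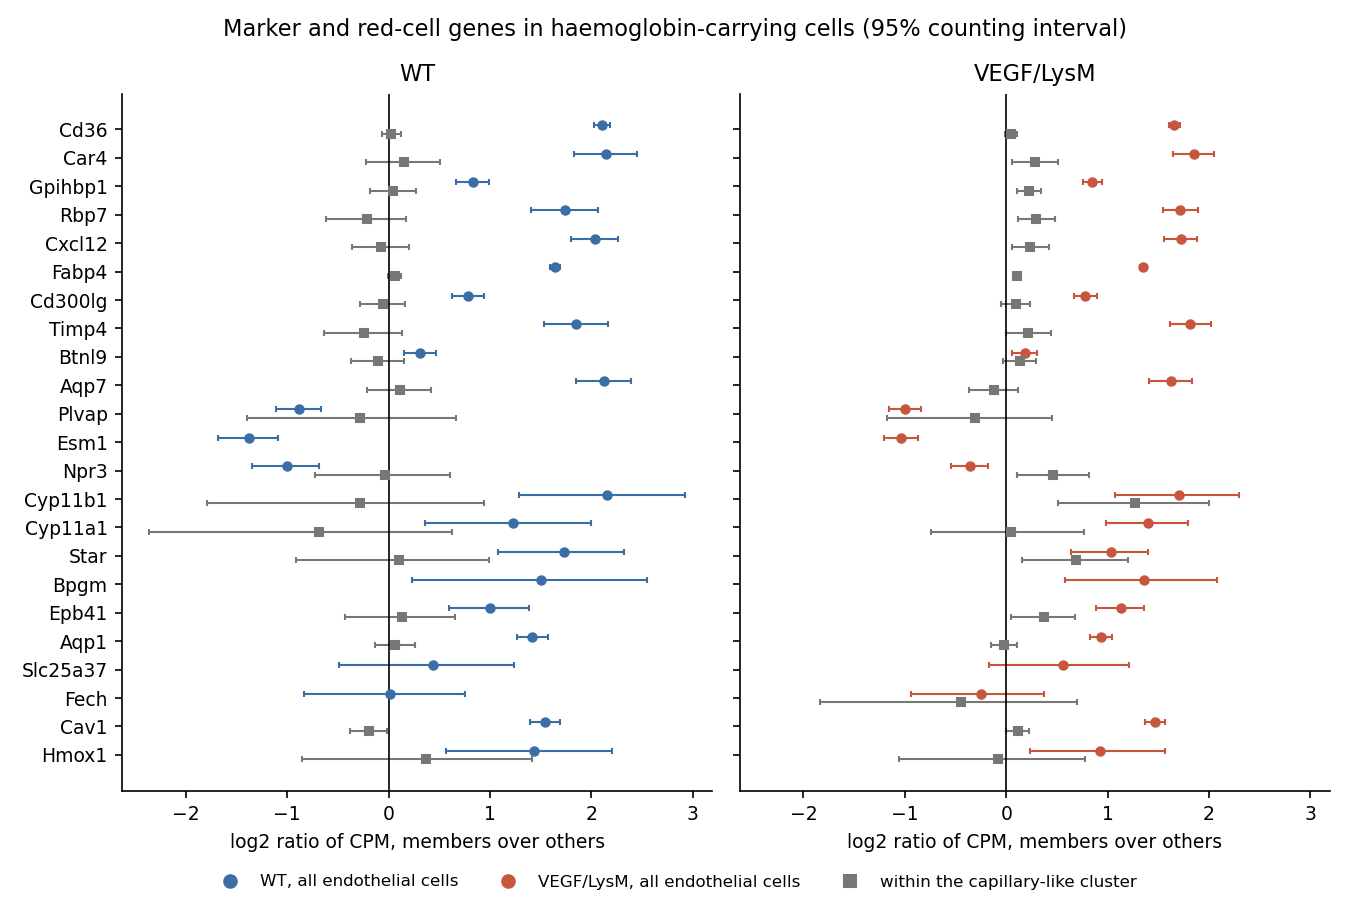
Log2 ratio of CPM, haemoglobin-carrying over other endothelial cells, for capillary, steroid, red-cell and haem-handling genes, in WT (left) and VEGF/LysM (right), with 95% counting intervals. Coloured circles use all endothelial cells and grey squares the capillary-like cluster alone, and a point is missing where the gene was not measured. For Cd36 the circle and square are at 2.10 and 0.03 (WT) and at 1.66 and 0.05 (VEGF/LysM).

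Alas2 came along, at a low level. This haem synthesis gene of red-cell precursors (chromosome X, 150547375 to 150570638, plus strand) gave 9 UMIs in 9 of 160 WT members (5.63%, 2.60 to 10.4), against 13 UMIs in 13 of 5841 other endothelial cells (0.223%). In VEGF/LysM it gave 17 UMIs in 13 of 183 members (7.10%, 3.84 to 11.8), against 11 UMIs in 11 of 3510 others (0.313%). The pooled level was 29.1 against 1.61 CPM in WT, a log2 ratio of 4.18 (2.77 to 5.52), and 26.0 against 1.16 CPM in VEGF/LysM, a log2 ratio of 4.49 (3.31 to 5.73). At 1000 UMIs per cell Alas2 was left in 1 of 107 WT members and 1 of 175 VEGF/LysM members, too few to read. In the clusters of other cell types it had 0 UMIs in WT and 1 in VEGF/LysM.

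Most Alas2 lay in the cells with the most globin. Cells with 30 or more globin UMIs held 6 of the 9 UMIs in WT and 15 of the 17 in VEGF/LysM. In VEGF/LysM the level was 251 CPM (120.5 to 462) in the 10 cells with 100 or more globin UMIs, 92.6 CPM (30.1 to 216) with 30 to 99, and 2.39 CPM (0.0604 to 13.3) with 3 to 9. In WT it was 95.7 CPM (2.42 to 533) on 1 UMI in the 6 cells with 100 or more. It was 120.3 CPM (39.1 to 281) with 30 to 99 and 10.4 CPM (1.26 to 37.5) with 3 to 9. Restricted to members with 3 to 29 globin UMIs the log2 ratio was 2.86 in WT (0.41 to 4.72) and 1.62 in VEGF/LysM (-1.59 to 3.82), so the excess in VEGF/LysM did not exceed counting error there. Under the stricter cell filter the WT log2 ratio was 2.43 (-0.82 to 4.71), which also did not. Per 1000 globin UMIs, Alas2 was 1.11 with 100 or more, 4.66 with 30 to 99 and 4.04 with 3 to 9 in WT. In VEGF/LysM it was 2.65, 4.56 and 1.73, and the intervals overlapped in each library.

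**Figure D4:**
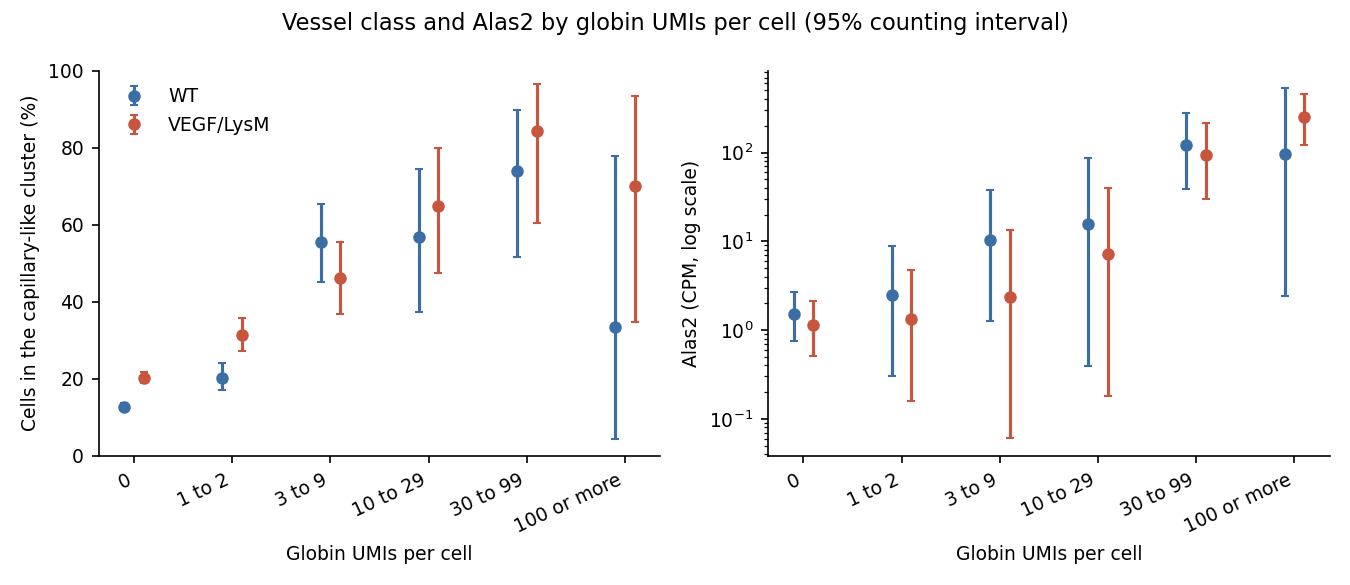
Percent of cells in the capillary-like cluster (left) and pooled Alas2 level in CPM on a log scale (right) by globin UMIs per cell, for WT and VEGF/LysM, with 95% counting intervals. Alas2 is at 1.51 CPM (WT) and 1.13 CPM (VEGF/LysM) in cells with 0 globin UMIs, and at 120.3 and 92.6 CPM in cells with 30 to 99.

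Within the capillary-like cluster Alas2 was also higher in members, where most members had 0 UMIs of it. In WT it had 6 UMIs in the members (46.7 CPM) against 3.48 CPM in the other capillary-like cells, a log2 ratio of 3.75 (1.52 to 6.38). In VEGF/LysM all 13 of its UMIs in this cluster lay in members (42.2 CPM). Against the floor of 3 counts over the other cells, its level was higher by 4.50 on the log2 scale, with a lower interval end of 3.996.

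Alas2 itself, under 50 UMIs in each comparison, did not count as measured. No measured gene of haem synthesis was 2-fold higher over all members. Of the 12 genes of this list all had a UMI in the members of both libraries. Of the 8 measured in WT, 0 were at least 2-fold higher and 1 was lower, and of the 10 measured in VEGF/LysM, 0 were higher and 0 lower. Over all measured genes 4.92% were higher and 6.05% lower in WT, and 3.01% and 5.48% in VEGF/LysM. With so few genes, these counts lie near those shares and do not set the list apart. Fech, which inserts iron to form haem, stood at 48.6 against 48.2 CPM in WT and at 33.7 against 40.0 CPM in VEGF/LysM. Slc25a37, a mitochondrial iron importer of red-cell precursors, stood at 42.1 against 31.1 CPM (log2 0.44, -0.49 to 1.24) and at 32.2 against 21.9 CPM (0.56, -0.17 to 1.21). In the 10 VEGF/LysM cells with 100 or more globin UMIs, Slc25a37 was at 151 CPM (6 UMIs, 55.3 to 328) against 23.0 CPM in cells with 0, and Fech at 126 CPM (5 UMIs, 40.8 to 293) against 41.8 CPM. In the 6 such WT cells Slc25a37 had 2 UMIs and Fech 0. Alad stood at 6.48 CPM (2 UMIs) against 18.9 CPM in WT, with an interval that includes equal levels (log2 -1.55, -4.61 to 0.33).

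Among genes of late red cells, Bpgm, which makes the 2,3-bisphosphoglycerate that lowers the oxygen affinity of haemoglobin, stood at 25.9 against 9.17 CPM in WT (log2 interval 0.23 to 2.55) and at 29.1 against 11.3 CPM in VEGF/LysM (log2 1.36, 0.58 to 2.08). Within the capillary-like cluster of VEGF/LysM, Bpgm stood at 32.5 against 11.2 CPM (log2 1.54, 0.26 to 2.73). In the 10 VEGF/LysM cells with 100 or more globin UMIs, Bpgm reached 226 CPM (103 to 429). Genes of the red-cell membrane and of red-cell regulation were at or near 0 in several cases. The anion exchanger Slc4a1 and the red-cell gene Hemgn each had 0 UMIs in WT members, which allows a share of up to 1.88% of cells with a UMI at 3 counts of 160 cells (2.28% by the Clopper-Pearson interval), and 1 UMI in VEGF/LysM members. The red-cell transcription factor Gata1 had 0 UMIs in the members of both, and Klf1 had 1 in WT and 0 in VEGF/LysM.

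Counted together, the red-cell lists hold 64 genes, of which 63 were found in the files. In WT 45 had a UMI in members and 31 were measured, with 5 at least 2-fold higher (Aqp1, Bpgm, Dmtn, Epb41 and Ube2o) and 3 lower (Alad, Cd24a and Lmo2). In VEGF/LysM 48 had a UMI and 36 were measured, with 3 higher (Bpgm, Epb41 and Epor) and 2 lower (Add2 and Cd24a). Beside these stand 4.92% higher and 6.05% lower over all measured genes in WT, and 3.01% and 5.48% in VEGF/LysM. The median log2 ratio was 0.24 and 0.12. Several of the higher genes are also endothelial: the water channel Aqp1 stood at 1224 against 458 CPM in WT, but at 1877 against 1798 CPM within the capillary-like cluster. Epor, the erythropoietin receptor, led the genes of that cluster, and within it stood at 42.2 against 32.3 CPM in VEGF/LysM (log2 0.39, -0.61 to 1.29). Within the capillary-like cluster 0 of 14 measured red-cell genes in WT and 0 of 21 in VEGF/LysM were 2-fold higher, and Bpgm, unlike over all cells, had too few UMIs there to be counted as measured.

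Few genes of haem handling or of endothelial alpha globin differed 2-fold. Cav1, the caveolar coat protein, was the 1 alpha globin partner that was 2-fold higher, of 6 measured in WT (4.92% of all genes) and 7 in VEGF/LysM (3.01%) out of 10 listed, at 1389 against 476 CPM in WT and 1516 against 549 CPM in VEGF/LysM. Within the capillary-like cluster it stood at 2236 against 2561 CPM and at 2442 against 2257 CPM. Nos3, the endothelial nitric oxide synthase, stood at 100.4 against 105 CPM and at 126 against 108 CPM. Hmox1, which breaks down haem, stood at 48.6 against 18.0 CPM in WT (log2 1.44, 0.56 to 2.20) and at 35.2 against 18.5 CPM in VEGF/LysM (0.93, 0.23 to 1.56), and within the capillary-like cluster at 70.1 against 54.5 and 42.2 against 44.7 CPM. Slc11a2, an iron transporter, was 2-fold lower in VEGF/LysM on 4 UMIs, with an interval that includes equal levels. Of 10 genes for the uptake of dying red cells, 10 were measured in WT and 9 in VEGF/LysM. Cd36 was the 1 that was 2-fold higher in each library, beside 4.92% and 3.01% of all measured genes. Itgb3 was lower in VEGF/LysM, beside 5.48% of all measured genes. Within the capillary-like cluster 0 of 6 measured genes of this list in WT and 0 of 7 in VEGF/LysM were 2-fold higher.

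Transcripts of steroid-making cells moved with the members as well. Of 10 adrenocortical genes, 7 were measured in WT with 5 at least 2-fold higher, and 8 in VEGF/LysM with 4 higher. Over all measured genes 4.92% in WT and 3.01% in VEGF/LysM were higher. The summed level of the adrenocortical genes was 761 against 414 CPM in WT and 1020 against 575 CPM in VEGF/LysM. Cyp11b1, the last enzyme of corticosterone synthesis, stood at 51.8 against 11.6 CPM and at 44.4 against 13.6 CPM. Within the capillary-like cluster the sums were 748 against 813 CPM in WT and 1218 against 868 CPM in VEGF/LysM. There 0 of 6 measured adrenocortical genes were 2-fold higher in WT, beside 0.79% of all measured genes. In VEGF/LysM 3 of 7 were (Cyp11b1, Cyp21a1 and Hsd3b1), beside 0.408%. The part of RNA from other cells in the globin counts was not tested, since only barcodes called as cells were in the files.

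Between the libraries, the globin values of the members are a description only, since globin UMIs chose the members. The same minimum of 3 UMIs was applied at unlike depth (a median of 1470 UMIs in WT members and 2769 in VEGF/LysM members). The median globin share per member was 0.255% in VEGF/LysM against 0.502% in WT. A single cell held 1695 of the 6036 globin UMIs of VEGF/LysM members, so the pooled VEGF/LysM levels rest in part on it. Pooled globin levels without this cell are not given. The pooled level of Hba-a1 in members was 2124 CPM for WT beside 2170 CPM for VEGF/LysM, and that of Hbb-bs 4850 beside 4463 CPM. Alas2 stood at 29.1 and 26.0 CPM (log2 -0.16, -1.41 to 1.19). Of 4220 genes measured in members, 55 (1.3%) were at least 2-fold higher in VEGF/LysM and 27 (0.64%) lower, and in the other endothelial cells 199 (1.56%) and 61 (0.479%) of 12731 were. By the rule for named genes, the higher ones were Gm26870, Cacnb2, Cmss1, Gm10800, Gm28438 and Vcam1. Single cells carried several of these: 1 cell held 67 of the 72 Cacnb2 UMIs, 1 held 533 of the 884 of Gm26870, 1 held 37 of the 56 of Gm10800, and 1 held 23 of the 51 of Vcam1. Cmss1 was counted in 139 of 160 WT and 182 of 183 VEGF/LysM members, at 1237 and 3381 CPM (log2 1.45), beside 1.64 in the other endothelial cells. The lower ones were Cyp26b1, Gm42826, Egr1, Sdk1, Rarb and mt-Atp8. Cyp26b1, which breaks down retinoic acid, had 243 CPM in WT members beside 42.9 CPM in those of VEGF/LysM (log2 -2.50, -3.18 to -1.86), beside -1.85 in the others. Sdk1, a cell adhesion protein, had a log2 ratio of -1.57 (-2.19 to -0.95) in members, beside -0.13 (-0.21 to -0.05) in the others.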

How the data were processed

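The values the authors deposited are raw counts of UMIs for each gene in each called cell. Per the submitters' processing notes the authors used Cell Ranger 7.0.1, Seurat and the mm10 genome, and per the file headers the matrices came from cellranger 7.0.0. No source used here names the annotation release or the treatment of intronic reads.

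Cells were clustered with scanpy 1.11.5 (2000 variable genes, 30 principal components, 15 neighbours, Leiden resolution 1) without the globins and red-cell genes. Clusters were named from marker lists. UMIs were summed per library and group and scaled to CPM over UMIs other than the 4 globins. Ratios carry exact conditional binomial intervals, CPM exact Poisson intervals and shares Clopper-Pearson intervals. A gene was measured with at least 50 UMIs over both groups and at least 5 seen or expected in members, and called when at least 2-fold different. The ratio procedure was tested on simulated counts. There many unchanged genes also passed the 2-fold limit, and fewer, but not none, passed with the interval condition, so counts that also need the interval beyond equal levels were added after seeing this.

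Named genes were, in each direction, the 12 with the largest smaller ratio over both libraries, at least 2-fold in both, with at least 20 UMIs seen (higher) or expected (lower) in members of each, leaving out globins, Pecam1, Cdh5, Kdr, mitochondrial, ribosomal and unnamed genes. Listed red-cell and marker genes were named besides. Between libraries they were the 6 per direction whose interval lay farthest from equal, with at least 50 UMIs. The members and lists were chosen with earlier results of these data known. Positions are from GENCODE M21 (GRCm38). Python 3.11.15, numpy 2.4.6, scipy 1.17.1 and pandas 2.3.3 were used. Alternatives covered the globin and endothelial minimums, the cell filter, doublet scores, the CPM total, the gene filter, the comparison cells and the clustering. Some genes of the red-cell lists are not reported here by name.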

Additional observations from a re-analysis of the deposited data

Results flagged for a closer look

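Globin was also seen in barcodes outside the comparisons. Among barcodes left out by the cell filter, 8 of 142 in WT and 4 of 14 in VEGF/LysM held at least 3 globin UMIs. The WT ones held 3 to 195 globin UMIs, at most 34.8% of their UMIs, and 5 of the 8 had an endothelial UMI. In VEGF/LysM they held 3 to 634, and in 1 barcode globins made up 92.0% of the UMIs. Among cells past the filter with 0 UMIs of Pecam1, Cdh5 and Kdr, 1 of 133 in WT and 3 of 100 in VEGF/LysM held at least 3 globin UMIs. These held 6 in WT and 5 to 84 in VEGF/LysM, where globins reached 13.6% of a cell's UMIs. There are no control samples for these counts.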

How the results depend on the processing

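No paired analysis was possible because there was 1 library per group and the labels give no shared replicate numbers. Under the alternatives 73 values of the main comparisons stayed within counting error or within 1.5 times the count, and 24 moved further, as follows. The share of haemoglobin-carrying cells was 0.983% in WT and 1.79% in VEGF/LysM with at least 10 globin UMIs, and 1.84% and 2.55% after thinning. The capillary-like share of WT members was 48.6% under the stricter cell filter (1000 UMIs, 500 genes, 10% mitochondrial UMIs), and that of VEGF/LysM members 71.2% with at least 10 globin UMIs. The Alas2 log2 ratio was 2.43 in WT under the stricter filter, and in VEGF/LysM 5.88 with at least 10 globin UMIs and 1.62 with 3 to 29. Genes at least 2-fold higher numbered 252 in WT and 167 in VEGF/LysM against others reweighted to the members' cluster mix, 33 and 26 in the capillary-like cluster alone, and 266 and 209 with at least 100 UMIs per gene. With at least 10 globin UMIs 490 were higher in VEGF/LysM. Lower genes numbered 350 and 353 after reweighting, 161 and 176 in the capillary-like cluster, and 289 and 356 with the interval also beyond equal levels. Between libraries, 35 were higher and 17 lower with at least 10 globin UMIs. Of the named genes, 6 values turned direction, all in WT. In the capillary-like cluster Cxcl9 had -0.044, Cdh13 -0.26, Timp4 -0.24, Gpr160 -0.42 and Cxcl12 -0.072, and after reweighting Timp4 had -0.11. The comparisons within the capillary-like cluster, with 3 to 29 globin UMIs, without the cell with the most globin and with the interval condition were chosen after seeing the data. The smaller sets test fewer genes or cells; otherwise the cause was not tested. Depth limits Alas2, at 9 and 17 UMIs in members.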
